A study of Mus musculus with 24 samples.

Results

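Potassium channels are membrane proteins that let potassium ions leave or enter a cell, and the mix of subunits that a cell makes sets its resting potential and the shape and timing of its action potentials. Voltage-gated pores open when the membrane is depolarised, calcium- and sodium-activated pores open when those ions rise inside the cell, inward rectifiers and tandem-pore (K2P) leak channels work near rest, and silent modifiers and auxiliary subunits change the channels they join. In the hippocampus, neurons rely on voltage-gated pores for repolarisation, and astrocytes are known for inward rectifiers that take up the potassium that neurons release. The potassium channel genes described here were all gene symbols made of Kcn, further letters and a number, with pseudogene and opposite-strand symbols left out, which gave 92 of the 55254 genes in the count tables. Subunit roles were assigned by symbol stem. This gave 30 voltage-gated pores, 10 silent modifiers, 8 calcium- or sodium-activated pores, 15 inward rectifiers, 14 K2P channels and 15 auxiliary subunits. Kcnu1 stands among the calcium- or sodium-activated pores by its stem only, not by how it opens.

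Nuclear RNA was sequenced from hippocampi of male mice on a C57BL/6N background at 6 months of age. The 4 genotypes were WT, Mutyh-/-, Ogg1-/- and the double knockout of Ogg1 and Mutyh (DKO), which lack DNA glycosylases that act on oxidised guanine and on adenine paired with it. Nuclei were sorted with an antibody against NeuN, a nuclear protein of most neurons, into NeuN+ and NeuN- nuclei, and each genotype and fraction had 3 libraries, 24 in all. Nuclei were pooled from 3 animals of a genotype, and no source ties a library to animals, so the p-values measure the spread between libraries. Every NeuN+ library was run on lanes 2 and 4 and every NeuN- library on lanes 1 and 3, so a lane effect and a fraction effect cannot be told apart. Total counts were 56563586 to 96192142 per library with a median of 70434612, and potassium channel genes took 1.84% to 2.02% of the counts in NeuN+ libraries against 0.522% to 0.573% in NeuN- libraries. Kcnip4 alone made up 28.9% to 33.0% of these channel counts in NeuN+ libraries and 4.94% to 8.09% in NeuN- libraries. The fractions carried the markers of their labels in the WT libraries, where 7 of 8 neuron markers were higher in NeuN+ and all 6 astrocyte and all 5 oligodendrocyte markers were higher in NeuN-. The exception was Prox1, a granule cell transcription factor, at 126% of its NeuN+ level in NeuN- nuclei. Rbfox3, which encodes NeuN, stood in NeuN- libraries at 6.17% of its NeuN+ level. The counts span whole genes, so they give no check of the deleted parts: Mutyh was higher in the libraries labelled Mutyh-/- (log2 fold change 3.15 in NeuN+ and 1.85 in NeuN-), and Ogg1 in the libraries labelled Ogg1-/- differed from WT by 0.05 and 0.02 with adjusted p = 0.916 and 0.97. Each genotype is therefore named as its label has it.

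The gene neighbourhood with the sharpest contrast is shown first. Kcnj9 encodes a G-protein-gated inward rectifier of neurons and Kcnj10 the main inward rectifier of astrocytes and oligodendrocytes. They lie next to each other on chromosome 1 on opposite strands, 11.9 kb apart (Kcnj9 at chr1:172320501-172329318, Kcnj10 at chr1:172341210-172374085, GRCm38). Kcnj16, a partner of Kcnj10 in joint channels, and Kcnj8, the pore of ATP-sensitive channels in pericytes and smooth muscle, were the other inward rectifiers with a very large ratio of NeuN- to NeuN+ level, Kcnj8 at a low level. The lines give the 250 reference bases before each start from RefSeq (GRCm38.p6), 5′ to 3′ on the gene's strand, with CG dinucleotides in capitals.
Kcnj10, chr1:172340960-172341209, plus strand: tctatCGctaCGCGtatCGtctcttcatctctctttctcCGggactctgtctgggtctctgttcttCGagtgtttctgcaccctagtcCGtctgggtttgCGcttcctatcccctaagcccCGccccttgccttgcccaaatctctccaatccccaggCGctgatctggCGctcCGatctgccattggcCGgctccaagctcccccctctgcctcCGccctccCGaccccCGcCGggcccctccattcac
Kcnj9, chr1:172329323-172329572, minus strand: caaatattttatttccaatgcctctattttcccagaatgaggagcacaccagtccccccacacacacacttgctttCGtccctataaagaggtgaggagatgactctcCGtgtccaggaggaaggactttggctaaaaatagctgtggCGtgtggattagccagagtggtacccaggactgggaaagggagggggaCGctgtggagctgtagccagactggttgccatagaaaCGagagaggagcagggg
Kcnj16, chr11:110967783-110968032, plus strand: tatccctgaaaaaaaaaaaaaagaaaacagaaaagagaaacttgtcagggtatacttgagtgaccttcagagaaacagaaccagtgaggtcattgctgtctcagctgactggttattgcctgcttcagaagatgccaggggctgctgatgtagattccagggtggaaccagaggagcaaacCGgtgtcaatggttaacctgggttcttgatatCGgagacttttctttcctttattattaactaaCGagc
Kcnj8, chr6:142571615-142571864, minus strand: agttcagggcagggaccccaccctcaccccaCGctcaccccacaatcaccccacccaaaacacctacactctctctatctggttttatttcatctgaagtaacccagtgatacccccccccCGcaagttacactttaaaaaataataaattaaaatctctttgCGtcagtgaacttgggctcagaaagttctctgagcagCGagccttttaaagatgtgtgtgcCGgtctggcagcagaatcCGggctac
The Kcnj10 window held 17 CG dinucleotides and the Kcnj9 window 5, beside 3 for Kcnj16 and 6 for Kcnj8. The median over 32851 windows of the same length was 6, and 23.5% of them held at least as many as Kcnj10. The motif GGGCGG, on either strand, occurred 2 times before Kcnj10 and in none of the other 3 windows, and 32.7% of all windows held it. Windows were found for 67 of the 92 symbols.

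In WT mice, Kcnj10 had 1.83, 1.65 and 1.34 CPM (counts scaled to the size of the library) in NeuN+ libraries and 134, 124 and 131 CPM in NeuN- libraries, while its neighbour Kcnj9 had 51.7, 54.2 and 51.2 CPM in NeuN+ and 4.06, 4.67 and 4.33 CPM in NeuN-. The neighbours ran in opposite directions, with no overlap of libraries in either gene. The log2 difference (NeuN+ minus NeuN-, edgeR quasi-likelihood test over all 24 libraries, p adjusted over all 33523 genes tested) was -6.33 (SE 0.18, adjusted p = 8.81e-19) for Kcnj10 and 3.59 (SE 0.09, adjusted p = 1.4e-19) for Kcnj9. The opposite signs held in each genotype, with -6.66 to -6.33 for Kcnj10 and 3.59 to 3.92 for Kcnj9. A change in the number of nuclei of a type and a change in RNA per nucleus cannot be told apart in such pooled libraries.

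Across all members, 87 passed the filter on low counts in the 24-library test, and 63 of them (72.4%) had a WT difference between the fractions of more than 1 on the log2 scale with adjusted p below 0.05, against 42.9% of all genes tested. Of these, 50 were higher in NeuN+ (background 21.3%) and 13 were higher in NeuN- (background 21.6%). The median log2 difference was 1.55 over the members and -0.01 over all genes tested. The other 3 genotypes, which use separate libraries, gave 63 called members in Mutyh-/- (background 43.9%), 65 in Ogg1-/- (background 43.9%) and 65 in DKO (background 44.4%). Over the 4 genotypes, 48 members were higher in NeuN+ every time, 13 were higher in NeuN- every time, 7 were called in some genotypes, 19 in none, and no member was called in opposite directions. The 5 members that did not pass the filter (Kcna7, Kcne1, Kcnj1, Kcnj15 and Kcnk16) had at most 11 counts in any library. Some called members passed only through the fraction where they were higher. Kcne4, Kcnj8 and Kcnn4 had at most 10 counts in any NeuN+ library and failed the filter there. Kcne3, Kcnk15 and Kcnv2 had at most 8 in any NeuN- library and failed it there. Their calls are thus not independent of the filter, which was the same for all genes.

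**Figure D1:**
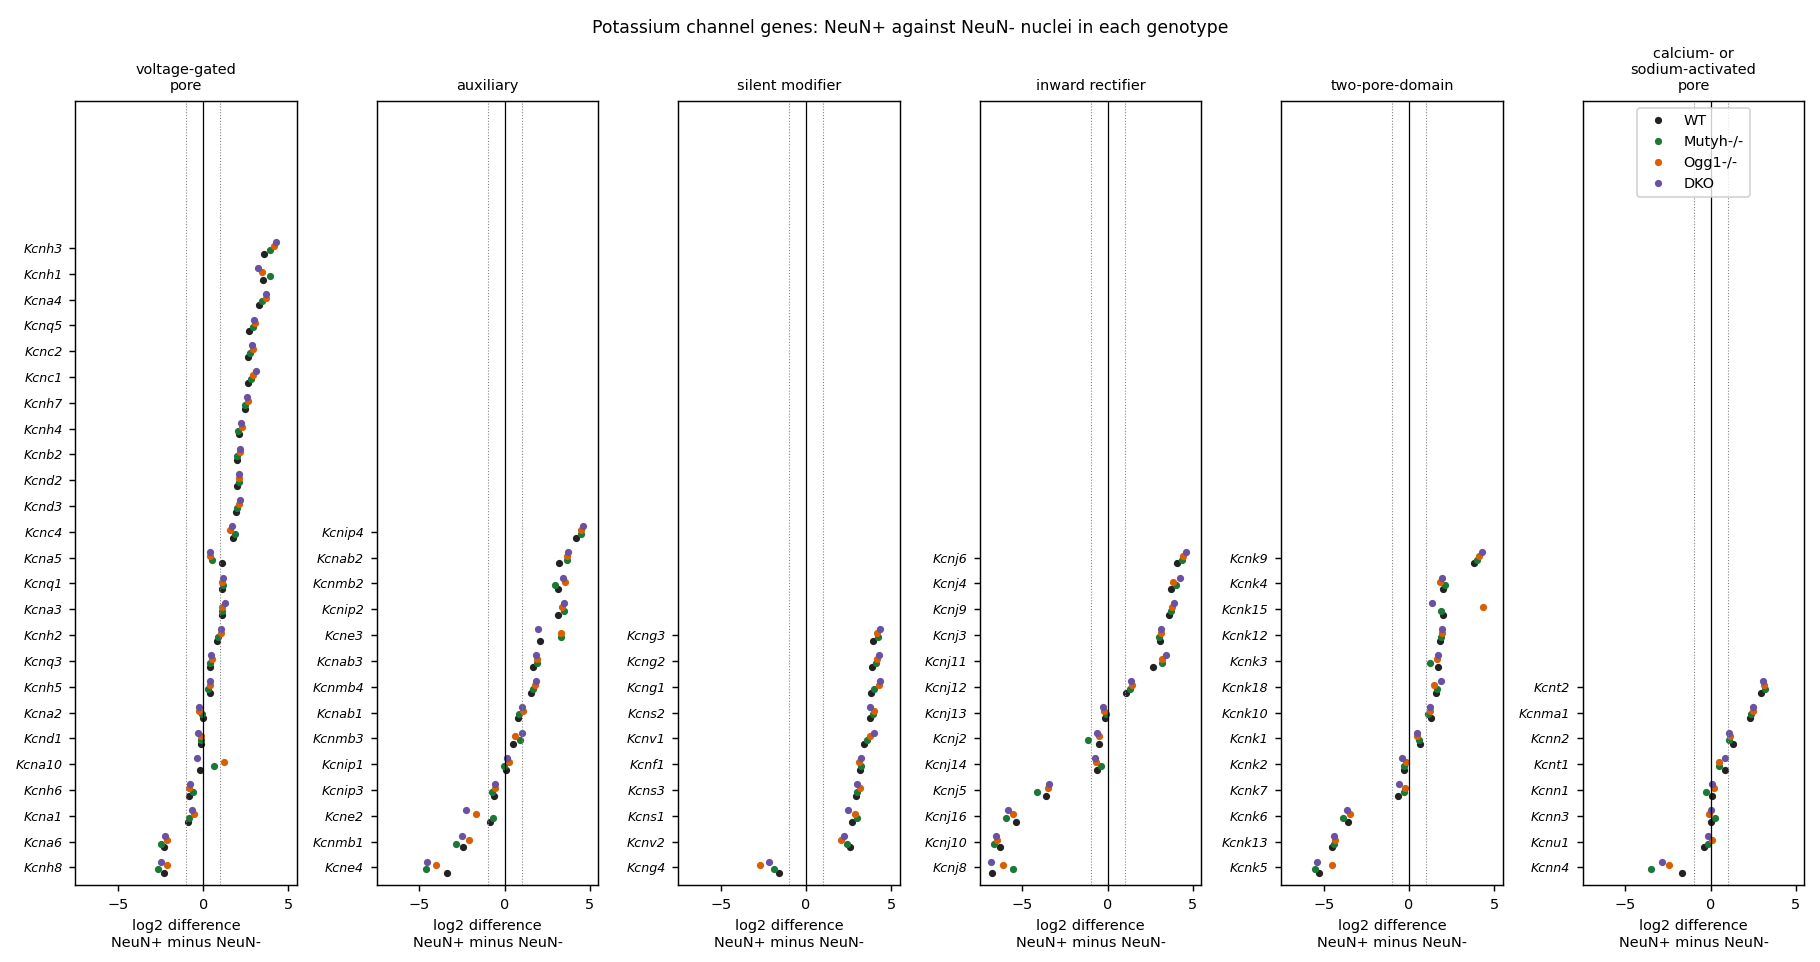
Log2 difference between NeuN+ and NeuN- nuclei (x axis) for tested members, in a panel per subunit role and with a dot per genotype; dotted lines mark 1 and -1. Silent modifiers sit far to the right except Kcng4, inward rectifiers spread from -6.76 to 4.09 in WT, and the 4 genotypes lie close together for most members.

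Among the 29 voltage-gated pores tested, 18 were higher in WT NeuN+ nuclei, 2 were higher in NeuN- and 9 did not pass. Kcnq5, a subunit of the M-current that restrains repetitive firing, differed by 2.71 (SE 0.07, adjusted p = 4.69e-19). Kcnq3, another subunit of that current, had 1164, 1009 and 1064 CPM in NeuN+ and 865, 771 and 801 CPM in NeuN-. These libraries did not overlap, but the difference of 0.41 (SE 0.08, adjusted p = 4.47e-05) was under the fold limit. Kcnh3 (3.59) and Kcnh1 (3.52), pores of the ether-a-go-go group, had the largest differences of the group, and Kcnh1 varied more (SE 0.38). The A-type pores Kcnd2 and Kcnd3, which open briefly below the firing threshold in dendrites, differed by 1.98 (SE 0.06) and 1.95 (SE 0.05).

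The Kcna genes, pores of the axon and its terminals, did not move as a block. Kcna4 was higher in NeuN+ nuclei (3.27, SE 0.14). Kcna2 had 54.8, 57.3 and 53.4 CPM in NeuN+ and 56.0, 57.5 and 56.0 CPM in NeuN-, and its difference was -0.03 (SE 0.05, adjusted p = 0.555). Kcna1 had 30.8, 32.6 and 34.2 CPM in NeuN+ and 67.5, 53.1 and 57.2 CPM in NeuN-, so every NeuN- library was higher, by 0.87 on the log2 scale in the fit (-0.87, SE 0.11, adjusted p = 1.3e-07), under the fold limit. Kcna6 was among the members higher in NeuN- (35.4, 35.6 and 36.1 against 182, 163 and 182 CPM, -2.30, SE 0.09, adjusted p = 8.99e-17). A noncoding gene, Gm26673, lies almost wholly inside Kcna6 and overlaps 68.0% of the Kcna6 span. The count of Gm26673 equalled 81.4% to 84.7% of the Kcna6 count, and the shared reads can come from either gene. With those counts taken away, a step chosen after seeing the data, the difference was -2.23 (SE 0.10, adjusted p = 4.69e-15). Kcnh8 was the other voltage-gated pore higher in NeuN- (-2.31, SE 0.12), with 44.6, 41.1 and 42.1 CPM there against 10.3, 7.60 and 7.94 CPM in NeuN+.

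Kcnq1, a pore best known from heart and inner ear, was counted at 398 ± 23.2 CPM (SD, n = 3) in WT NeuN+ and 184 ± 3.00 CPM (SD, n = 3) in WT NeuN- nuclei. The imprinted noncoding gene Kcnq1ot1 lies inside Kcnq1 on the opposite strand and overlaps 29.0% of the Kcnq1 span. The count of Kcnq1ot1 equalled 95.7% to 99.2% of the Kcnq1 count over the 24 libraries. What remained was 14.3 ± 0.761 CPM (SD, n = 3) in NeuN+ and 4.21 ± 0.407 CPM (SD, n = 3) in NeuN-, still higher in NeuN+ (log2 difference 1.76, SE 0.24, adjusted p = 8.98e-07) beside 1.11 (SE 0.06, adjusted p = 1.82e-13) for the full count. Of 1016 genes that lie in an intron of a gene on the opposite strand, 1014 had no more counts than their host in each of the 24 libraries, so the counting took in introns and both strands. A330015K06Rik overlaps 63.1% of the Kcnab1 span, and its count equalled 53.2% to 82.0% of the Kcnab1 count. The Kcnab1 call changed with the subtraction: 0.80 (SE 0.13, adjusted p = 6.06e-06) with the shared counts and 1.89 (SE 0.10, adjusted p = 3.36e-14) without them. Reads in shared bases count for both genes. Each subtraction therefore also takes away a member's own reads there and does not separate the member from the gene inside it. In all, 51 members shared no base with another gene, and 8 shared at least 50% of their span (Kcna3, Kcna6, Kcnab1, Kcne3, Kcne4, Kcnj13, Kcnj15 and Kcnmb1).

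Silent modifiers form no channel alone and join other voltage-gated pores. All 10 were tested and called, 9 higher in NeuN+ and 1 higher in NeuN-, with a median log2 difference of 3.28. Kcng3 had 14.1, 14.8 and 15.2 CPM in NeuN+ against 0.742, 1.34 and 0.879 CPM in NeuN- (3.92, SE 0.16, adjusted p = 3.92e-16), and Kcng2 differed by 3.85 (SE 0.15). Kcng4 ran the other way, with 0.341, 0.405 and 0.248 CPM in NeuN+ and 0.882, 0.870 and 1.26 CPM in NeuN- (-1.59, SE 0.24, adjusted p = 3.76e-06).

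Inward rectifiers were split. Of 13 tested, 6 were higher in NeuN+, 4 in NeuN- and 3 did not pass. The G-protein-gated subunits Kcnj3 (3.09, SE 0.09), Kcnj6 (4.09, SE 0.13) and Kcnj9 were all higher in NeuN+. The 4th gene of that family, Kcnj5, was higher in NeuN-, with 0.162, 0.308 and 0.215 CPM in NeuN+ against 2.92, 2.71 and 2.88 CPM (-3.63, SE 0.26, adjusted p = 1.32e-11). Kcnj16 had 0.406, 0.373 and 0.297 CPM in NeuN+ and 14.4, 15.1 and 14.8 CPM in NeuN- (-5.36, SE 0.13, adjusted p = 6.23e-20). Its neighbour Kcnj2, 38.2 kb away, had a difference of -0.50 (SE 0.15, adjusted p = 0.00507). Kcnj8 was seen in 2 counts over the 3 WT NeuN+ libraries and 357 over the 3 WT NeuN- libraries, a ratio per count of 148 with a 95% exact interval of 40.7 to 1230 that covers counting error only. Abcc9, which encodes the sulfonylurea receptor that joins Kcnj8, was also higher in NeuN- (-5.63, SE 0.22, adjusted p = 2.18e-16). Kcnj11, the pore of neuronal ATP-sensitive channels, and its receptor gene Abcc8 were higher in NeuN+, by 2.69 (SE 0.14) and 3.40 (SE 0.10). Kcnj13 did not differ at this test (-0.16, SE 0.11, adjusted p = 0.195). It lies inside Gigyf2, whose reads it shares: its level per kb of gene was 0.697 times that of Gigyf2 in NeuN+ and 0.868 times in NeuN-.

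K2P channels carry leak currents. Of 13 tested, 7 were higher in NeuN+ and 3 in NeuN-. Kcnk9 had 91.3, 92.2 and 95.7 CPM in NeuN+ against 5.504, 6.98 and 7.46 CPM in NeuN- (3.81, SE 0.11, adjusted p = 7.01e-19). Kcnk13 showed the reverse, with 8.95, 9.25 and 9.50 CPM in NeuN+ and 240, 204 and 199 CPM in NeuN- (-4.54, SE 0.13, adjusted p = 1.34e-18). It is a channel known from microglia. Kcnk5 (-5.29, SE 0.33) and Kcnk6 (-3.604, SE 0.16) were the other K2P genes higher in NeuN-. Kcnk1 (0.65, SE 0.09) and Kcnk2 (-0.28, SE 0.11), both studied in astrocytes, were under the fold limit. Markers of microglia, astrocytes, oligodendrocyte precursors, endothelial cells and pericytes were all higher in the same NeuN- libraries, and which of these cells carried each channel was not tested.

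Among calcium- and sodium-activated pores, 3 of 8 were higher in NeuN+ and 1 in NeuN-. Kcnma1, the large-conductance calcium-activated pore, had 2061, 1904 and 1890 CPM against 392, 376 and 408 CPM (2.32, SE 0.05, adjusted p = 4.49e-20). The sodium-activated Kcnt2 differed by 2.98 (SE 0.11), whereas Kcnt1 stayed under the fold limit (0.87, SE 0.15). The small-conductance pores differed from each other: Kcnn2 was higher in NeuN+ (1.32, SE 0.15), Kcnn3 had 63.6, 66.8 and 67.9 CPM against 61.5, 65.3 and 70.9 CPM (0.01, SE 0.07, adjusted p = 0.95), and the intermediate-conductance Kcnn4 was higher in NeuN- (-1.67, SE 0.48, adjusted p = 0.00391) at no more than 0.381 CPM in any WT library.

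Of 14 auxiliary genes tested, 7 were higher in NeuN+ and 2 in NeuN-. Kcnip4, which binds Kcnd pores, had 7278, 6231 and 6343 CPM in NeuN+ and 322, 402 and 385 CPM in NeuN- (4.16, SE 0.12, adjusted p = 1.24e-18). In NeuN- it stood at 5.59% of its NeuN+ level, and Kcnj6 at 5.88%. These were the only members at or below the 6.17% of Rbfox3. The median member stood at 34.1%, beside 11.2% for the median of the 8 neuron markers. Kcnab2, a cytoplasmic subunit of Kcna pores, differed by 3.22 (SE 0.11), and Kcnip1 by 0.08 (SE 0.04, adjusted p = 0.0755). Of 26 genes whose products join or anchor potassium channels or form related channels, all were tested, 12 were higher in NeuN+ and 3 in NeuN-. Dpp6 (2.27, SE 0.05) and Dpp10 (2.76, SE 0.17), the other partners of Kcnd pores, were among the 12. Cntn2, which holds Kcna channels beside the nodes of myelinated axons, was higher in NeuN- (-3.87, SE 0.09).

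Levels of different genes were compared as CPM per kb of gene span, because the counts cover introns. In WT NeuN+ nuclei Kcnj9 had 5.94 ± 0.182 CPM per kb (SD, n = 3), with 5.87, 6.14 and 5.80 in its libraries, and overlapped with Kcnip4 (5.83). Kcna1 (5.43) lay above Kcna4 (4.58) in every library. Kcnd2 (3.98), Kcna2 (3.98), Kcnip2 (3.598) and Kcnq3 (3.59) were also among the first 10 and overlapped with their neighbours in that order. In WT NeuN- nuclei Kcna1 stood highest at 9.90 ± 1.24 CPM per kb (SD, n = 3), with 11.3, 8.86 and 9.55, above Kcna6 at 5.44 ± 0.339 (SD, n = 3), which includes the counts of Gm26673. Kcna2 (4.08) and Kcnj10 (3.95) overlapped. Kcnip3 (2.99), which binds Kcnd pores and also acts as a calcium-dependent transcriptional repressor, overlapped with Kcnq3 (2.71), and Kcnk13 (2.19), Kcnd2 (1.01) and Kcnk1 (0.964) were also among the first 10. This order depends on the length used. Per kb of exon, 3 of the 10 in NeuN+ and 6 of the 10 in NeuN- kept a place among the first 10, and Kcnip4, whose gene spans 1135 kb, led both fractions.

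**Figure D2:**
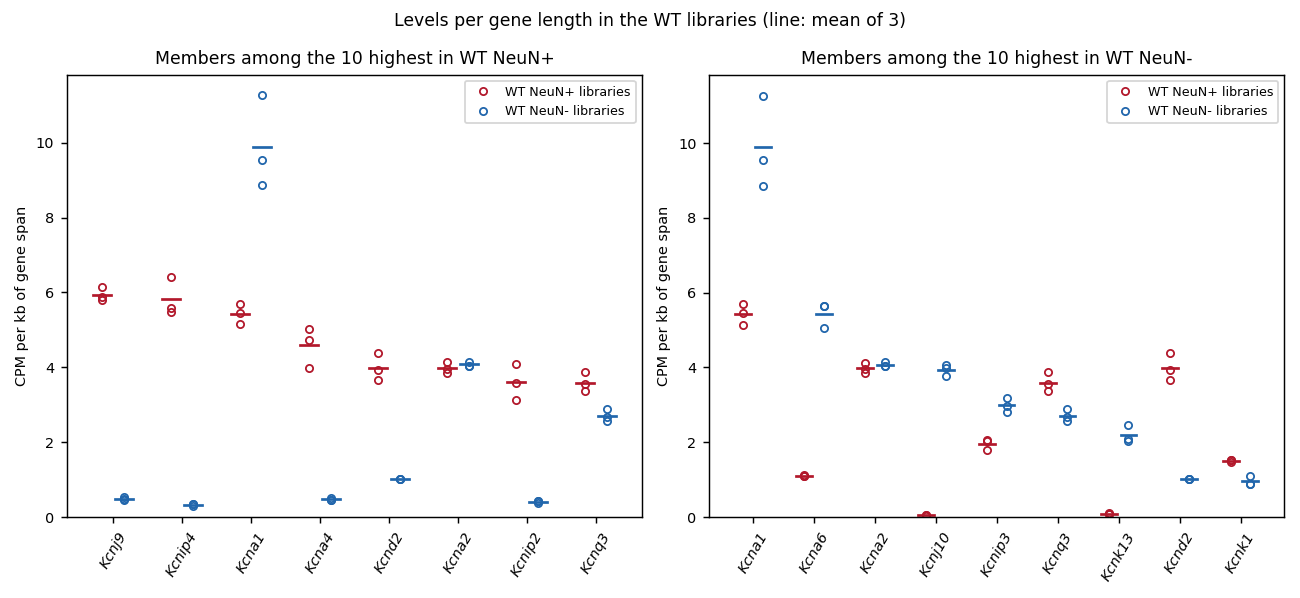
CPM per kb of gene span (y axis) for members among the 10 highest in WT NeuN+ (left) and in WT NeuN- (right), with a circle per library and a line at the mean of 3. In the left panel Kcnj9 stands at 5.94 and in the right Kcna1 at 9.90, and Kcna2 has nearly the same level in both fractions.

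The knockouts were then compared with WT within each fraction. With the study's limits for differentially expressed genes (DEGs), an adjusted p below 0.05 together with a log2 fold change beyond 0.5 in either direction, edgeR called 0 of 83 tested members in NeuN+ nuclei of Mutyh-/- (0.428% of all genes were called), Ogg1-/- (0.574%) or DKO (0.302%), and 0 of 84 in NeuN- nuclei of Mutyh-/- (0.273%), Ogg1-/- (0.229%) or DKO (0.116%). DESeq2 called 0 in the first 4 of these comparisons and 2, Kcna4 and Kcnh3, lower in NeuN- nuclei of both Ogg1-/- and DKO. Of all genes tested, DESeq2 called 1.28%, 0.813% and 0.591% in NeuN+ nuclei and 0.709%, 0.53% and 0.537% in NeuN- nuclei of Mutyh-/-, Ogg1-/- and DKO. At an unadjusted p under 0.05 there were 28, 9 and 9 members in NeuN+ nuclei of Mutyh-/-, Ogg1-/- and DKO (background 18.7%, 12.3% and 13.5%) and 17, 20 and 23 in NeuN- nuclei (background 13.7%, 11.8% and 12.4%). Libraries of 3 knockouts and 3 WT did not overlap for 19, 15 and 9 members in NeuN+ (background 21.1%, 19.3% and 16.8%) and for 22, 25 and 21 members in NeuN- (background 19.2%, 19.8% and 17.0%). Among the 26 partner genes there was no DEG in any of the 6 comparisons, and the smallest adjusted p was 0.0392, for Cntnap2 in NeuN- nuclei of Ogg1-/- (-0.49).

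Without the fold limit 1 member passed the adjusted p in each of 2 of these 6 comparisons, NeuN+ nuclei of Ogg1-/- (background 1.1%) and NeuN- nuclei of Mutyh-/- (0.32%). None passed in NeuN+ nuclei of Mutyh-/- (0.641%) and DKO (0.494%) or NeuN- nuclei of Ogg1-/- (0.342%) and DKO (0.179%). The member in Ogg1-/- was Kcna6, which in NeuN+ nuclei had 32.4, 32.9 and 33.5 CPM in WT, 41.9, 38.9 and 38.6 CPM in Ogg1-/- and 36.0, 38.2 and 40.8 CPM in DKO. All 6 libraries lacking Ogg1 by label lay above the 3 WT libraries, which both comparisons share, and Mutyh-/- libraries (36.0, 34.5 and 32.9 CPM) overlapped with WT. The log2 fold change was 0.27 (SE 0.06, adjusted p = 0.0353) in Ogg1-/- and 0.22 (SE 0.06, adjusted p = 0.112) in DKO. Leaving out any 1 of the 6 Ogg1-/- and WT libraries gave 0.235 to 0.295 with adjusted p from 0.0909 to 0.169. Without the counts of Gm26673 the Ogg1-/- value was 0.31 with adjusted p = 0.184. In NeuN- nuclei the values were 0.10 (SE 0.10, adjusted p = 0.745) and 0.15 (SE 0.10, adjusted p = 0.559). Kcna6 lies on chromosome 6 at 13.4 Mb from Ogg1, next to Kcna1 and Kcna5, for which no comparison with WT passed the adjusted p.

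**Figure D3:**
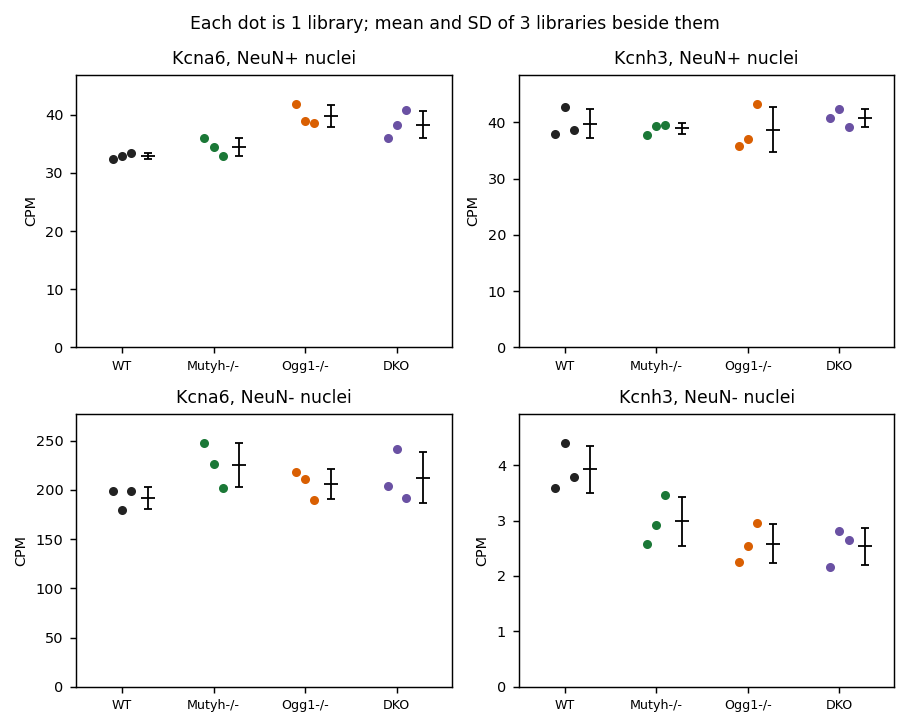
CPM on the scale of each fraction's own fit (y axis, from 0) for Kcna6 and Kcnh3 in NeuN+ (top) and NeuN- nuclei (bottom), with a dot per library and mean and SD of 3 beside them. Kcna6 is highest in Ogg1-/- in NeuN+, and Kcnh3 in NeuN- nuclei lies between 2.15 and 3.46 in the knockouts against 3.59 to 4.399 in WT.

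Other members with the smallest p of a comparison did not pass. In NeuN+ nuclei of Mutyh-/-, Kcnh6 had 16.7, 15.8 and 14.6 CPM against 11.9, 11.9 and 12.2 CPM in WT (0.39, SE 0.10, adjusted p = 0.0809). Kcna2 had the smallest p among lower members in NeuN+ nuclei of Ogg1-/- (-0.14, adjusted p = 0.238) and of DKO (-0.16, adjusted p = 0.176). In NeuN- nuclei, Kcnn1 had 5.15, 5.03 and 5.03 CPM in Mutyh-/- against 3.83, 3.75 and 4.36 CPM (0.35, SE 0.08, adjusted p = 0.133). Kcnc4 had 12.9, 12.9 and 11.5 CPM in Ogg1-/- against 9.47, 10.1 and 9.85 CPM (0.34, SE 0.08, adjusted p = 0.127), and Kcnq5 had 138, 148 and 140 CPM against 169, 172 and 174 CPM (-0.27, SE 0.06, adjusted p = 0.0771). In DKO, the astrocyte channel Kcnj16 had 19.2, 18.4 and 18.9 CPM against 15.7, 16.5 and 16.2 CPM (0.22, SE 0.05, adjusted p = 0.154), and Kcnmb4, a neuronal partner of Kcnma1, had 15.9, 17.7 and 16.8 CPM against 19.4, 20.1 and 19.5 CPM (-0.23, SE 0.05, adjusted p = 0.13). The groups did not overlap in any of these genes, yet the differences were all under the fold limit. The genes were picked for a small p, which favours such separation, and 16.8% to 21.1% of all genes also did not overlap.

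Between knockouts, edgeR and DESeq2 called 0 members in all 6 comparisons. For DKO against Ogg1-/-, DKO against Mutyh-/- and Ogg1-/- against Mutyh-/-, the background was 0.216%, 0.139% and 0.485% in NeuN+ and 0.132%, 0.122% and 0.521% in NeuN- with edgeR. With DESeq2 it was 0.246%, 0.183% and 0.747% in NeuN+ and 0.213%, 0.417% and 0.945% in NeuN-. At an unadjusted p under 0.05 there were 1, 14 and 18 members in NeuN+ (background 4.26%, 6.86% and 12.7%) and 4, 14 and 11 in NeuN- (background 4.34%, 11% and 11.5%). No member passed the adjusted p alone in DKO against Ogg1-/- (background 0.252% in NeuN+ and 0.157% in NeuN-) or in DKO against Mutyh-/- in NeuN+ (0.163%). In Ogg1-/- against Mutyh-/- 3 members passed in NeuN+ (background 0.654%) and 2 in NeuN- (0.788%), and in DKO against Mutyh-/- 1 passed in NeuN- (0.148%). Among them were the calcium-activated channel subunit Kcnmb2 (0.27, SE 0.06, adjusted p = 0.0367) and Kcnip1 (0.21, SE 0.05, adjusted p = 0.0463), both higher in Ogg1-/- than in Mutyh-/- NeuN+ nuclei. In NeuN- nuclei the inward rectifier Kcnj2 was lower in Ogg1-/- than in Mutyh-/- (-0.49, SE 0.10, adjusted p = 0.04).

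In NeuN- nuclei the members that WT NeuN+ nuclei expressed more strongly lay mostly below WT in every knockout. Of the 47 tested, log2 fold changes were below 0 for 37 (Mutyh-/-), 38 (Ogg1-/-) and 39 (DKO), and their medians were -0.15, -0.18 and -0.19. None was a DEG with edgeR, and 8, 12 and 18 of them were lower at an unadjusted p under 0.05 (17.0%, 25.5% and 38.3%, against 6.9%, 6.08% and 6.31% of all genes). The 5725 genes of all kinds with the same WT call also lay mostly below WT, with 62.1%, 58.0% and 56.1% below 0, medians of -0.06, -0.05 and -0.04, and 10.8%, 10.2% and 12.3% lower at an unadjusted p under 0.05. The members' shares below 0 were 78.7%, 80.9% and 83.0%. The split and the comparisons share the WT libraries, and the 3 comparisons share them with each other. The 13 members higher in NeuN- had medians of 0.15, 0.06 and 0.14. In NeuN+ nuclei the 50 members higher there had medians of 0.00, 0.02 and 0.04. Neuron markers moved with this in NeuN- nuclei. Of the 8, 7, 8 and 8 lay below WT in Mutyh-/-, Ogg1-/- and DKO (medians -0.13, -0.24 and -0.27, none a DEG, none at 0), and their summed level was 636 to 715 CPM in WT. The Mutyh-/- libraries had 618 to 656 CPM, the Ogg1-/- libraries 549 to 627 CPM and the DKO libraries 531 to 602 CPM. All 6 astrocyte markers lay above WT in Ogg1-/- and DKO (median 0.25 in each), 1 of them a DEG in Ogg1-/-. In Mutyh-/- 3 lay above WT and 3 below. All 5 oligodendrocyte markers lay below WT in Ogg1-/- and DKO (median -0.22 in each). All 3 oligodendrocyte precursor and all 3 interneuron markers also lay below WT there, and all 5 choroid plexus markers above. Other marker sets were mixed or differed between these knockouts. The part of these markers in the members' values was not tested.

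**Figure D4:**
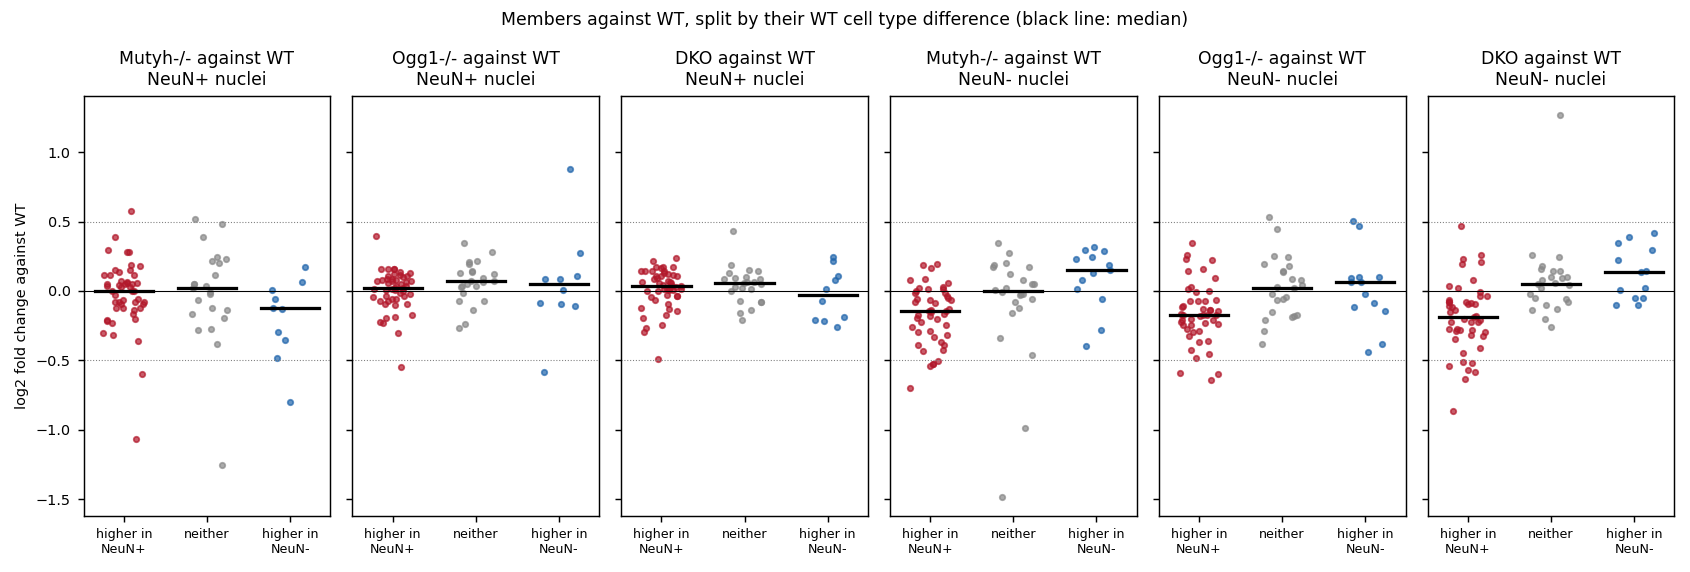
Log2 fold change against WT (y axis) of each tested member in 6 comparisons, split by the member's WT cell type call, with a black line at the median and dotted lines at 0.5 and -0.5. In the 3 NeuN- panels the members higher in NeuN+ centre between -0.19 and -0.15, and in the NeuN+ panels near 0.

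Kcnh3 is described here because of its small p in the test of whether the DKO effect differed between fractions, and was named after its values were seen. In NeuN- nuclei it had 3.59, 4.399 and 3.79 CPM in WT against 2.15, 2.81 and 2.64 CPM in DKO (-0.64, SE 0.15, adjusted p = 0.134). In NeuN+ nuclei it had 38.0, 42.6 and 38.5 CPM in WT against 40.8, 42.4 and 39.2 CPM in DKO (0.04, SE 0.07, adjusted p = 0.859). DKO libraries lay below all WT libraries in NeuN- and overlapped with them in NeuN+. The difference of the DKO effect was 0.69 (SE 0.15, adjusted p = 0.115) with edgeR and 0.71 (adjusted p = 0.00269) with DESeq2. With edgeR and no filter on low counts it was 0.71 (adjusted p = 0.0432), and with the replicate number as a block 0.69 (adjusted p = 0.0205), so the call depended on the settings. With edgeR 0 of 87 members passed for Mutyh-/- (background 0.0209%), Ogg1-/- (0.0537%) or DKO (0.0567%), with 12, 16 and 16 at an unadjusted p under 0.05 (background 8.58%, 7.09% and 9.4%), and DESeq2 passed 0, 0 and 2 (background 0.173%, 0.155% and 0.406%).

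Kcne2, a small auxiliary subunit abundant in choroid plexus, spread widely between libraries of 1 genotype in NeuN- nuclei. It had 0.349, 0.440 and 0.722 CPM in WT, 0.155, 0.177 and 0.205 CPM in the Mutyh-/- libraries, 0.131, 0.767 and 1.32 CPM in the Ogg1-/- libraries and 0.199, 0.830 and 2.69 CPM in the DKO libraries. Its log2 fold changes against WT were -1.48 (SE 0.91, adjusted p = 0.502), 0.54 (SE 0.80, adjusted p = 0.861) and 1.27 (SE 0.78, adjusted p = 0.53) in Mutyh-/-, Ogg1-/- and DKO. The summed level of 5 choroid plexus markers (Ttr, Folr1, Kl, Otx2 and Clic6) ran from 7.81 to 241 CPM over the 12 libraries, with none of the 5 at 0 in a group. The 4 libraries with the most Kcne2 were the 4 with the highest marker sums. In WT, 4 of the 5 markers were called higher in NeuN-, and the other had a log2 difference of 1.02 and was not called. The same sum was 9.91 to 20.9 CPM in NeuN+ libraries, so low sums are not particular to choroid plexus. The part of choroid plexus RNA in the Kcne2 values was not tested.

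**Figure D5:**
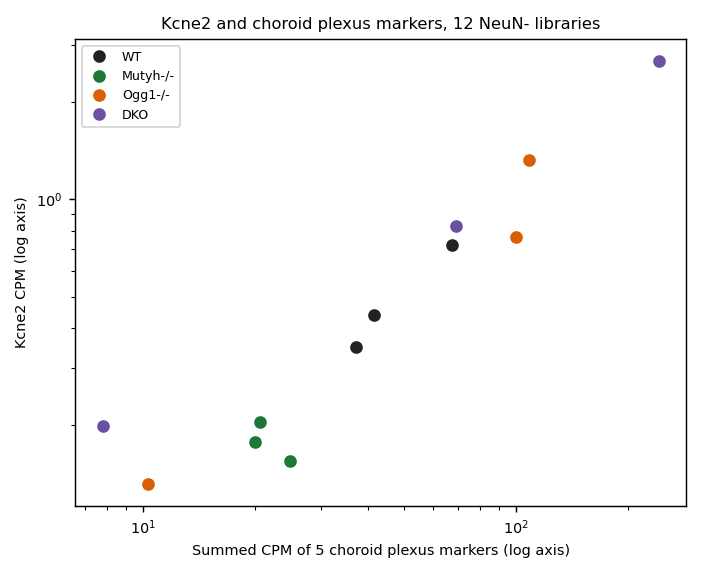
Kcne2 CPM (y axis, log scale) against the summed CPM of 5 choroid plexus markers (x axis, log scale) in the 12 NeuN- libraries, coloured by genotype. The 4 libraries with the most marker RNA have the most Kcne2, the order is mixed at low marker sums, and libraries of Ogg1-/- and of DKO lie at both ends.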

How the data were processed

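The authors aligned paired-end nuclear RNA reads to GRCm38 with HISAT2 2.1.0 and counted them per Ensembl gene with featureCounts. The deposited values are raw counts, not normalised, in 1 table per cell type. Handling of strand and overlapping genes is not given in the sources used here. Genotype comparisons were fitted over the 12 libraries of a fraction and cell type comparisons over all 24, with edgeR 4.0.16 (R 4.3.3): TMM normalisation, filterByExpr, the quasi-likelihood test and Benjamini-Hochberg adjustment over all genes tested. Calls needed adjusted p < 0.05 with a log2 difference beyond 0.5 (genotypes) or 1 (cell types) in either direction. DESeq2 1.42.0, other filters and normalisation, a replicate block, left-out libraries and subtracted nested genes were tried. On simulated counts, the fits called 71.2% (NeuN+) and 54.5% (NeuN-) of genes changed by 1 on the log2 scale. The 24-library fit called 85.6% of genes changed by 2. A count of 0 called members therefore does not show that none changed. CPM are TMM-scaled, over 24 libraries for cell types and over 12 for genotypes. Gene positions and overlaps came from a GENCODE annotation of GRCm38 that may differ from the authors' release. Gene span replaced the planned exon length after whole-gene counting was seen. Genes were named by rule: the smallest p per knockout and direction, the 2 largest cell type differences per role and direction, the 10 highest levels, genes near Ogg1 or Mutyh, and a list of well-studied channels. Kcnh3 and some genes of cell type comparisons were also named after their values were seen. Members and lists were chosen with earlier results of these data known. Results of some genes that the rule named are not reported here.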

Additional observations from a re-analysis of the deposited data

How the results depend on the processing

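No comparison of genotypes gave a member DEG under RLE size factors, the stricter low-count filter or the subtraction of nested genes. Without the fold limit 1 member passed in Ogg1-/- against WT in NeuN+, 1 in Mutyh-/- against WT in NeuN-, 3 and 2 in Ogg1-/- against Mutyh-/- in NeuN+ and NeuN-, and 1 in DKO against Mutyh-/- in NeuN-. DESeq2 gave 2 in NeuN- for Ogg1-/- and 2 for DKO. Leaving out 1 library gave 0 to 4 in Mutyh-/- NeuN+ (4 without Mutyh-/- replicate 3: Kcne2, Kcnh8, Kcnip2 and Kcnj2), 0 to 1 in Mutyh-/- NeuN- (Kcnip4 without Mutyh-/- replicate 3, and 1 without WT replicate 2) and 0 to 1 in Ogg1-/- against Mutyh-/- in NeuN+ (Kcnh8 without Mutyh-/- replicate 3). The DKO effect differed between fractions for 2 members, Kcnh3 among them, with DESeq2, with no low-count filter and with the replicate block, and for 0 to 2 when 1 library was left out: 1 without DKO NeuN+ replicate 1 and 2, Kcnj6 among them, without DKO NeuN- replicate 3. The shares of all genes called without the filter, with the block or with 1 library left out are not given here. These counts are therefore not read as a result about the members. The cause was not tested. Of 474 values for cell type differences of 40 named members, 473 kept direction and side of the threshold, the exception being Kcnab1. Kcna6 in Ogg1-/- NeuN+ nuclei ranged from 0.235 to 0.306 with adjusted p from 0.00251 to 0.184. The labels do not say that a replicate number marks a shared pool or day, so the pairing is not established. Deviations of NeuN+ and NeuN- libraries with the same number and genotype correlated at 0.011 to 0.292 (mean 0.112), above 0.1 in 6 of 12, against a mean of -0.055 over the 24 pairs with other numbers. Deviations were taken from the mean of each group's 3 libraries, so same-number pairs above 0 push the other pairs below 0. The mean of -0.055 is thus no separate contrast. In each fraction 11 of 12 libraries correlated best with their own number, which are 2 readings of the same pairs. They are a hint from the data that some numbers mark a shared source. With the replicate block the Kcnh3 difference of the DKO effect was 0.69 (adjusted p = 0.0205), and the replicate block changed no other count of calls by over 1.5 times. Depth limits the members near the filter on low counts, such as Kcne2 and Kcnn4.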
